A study of Mus musculus with 24 samples.

Results

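Lens epithelia of LEGSKO mice given buthionine sulfoximine (LEGSKO+BSO) were set against lens epithelia of untreated wild-type (WT) mice by RNA sequencing. The 8 libraries, 4 in each group, were chosen by their sample titles out of 24 in the series. In LEGSKO mice Gclc, which encodes the catalytic part of glutamate-cysteine ligase, is known to be deleted in the lens, and buthionine sulfoximine (BSO) is an inhibitor of the same enzyme. The series describes LEGSKO tissue as mildly and LEGSKO+BSO tissue as severely short of glutathione. Every library is labelled C57BL/6 and total RNA. WT mice received no treatment, and no WT group given BSO is among the 24 libraries, so that an effect of BSO and an effect of the genotype cannot be told apart in this comparison alone. A further epithelial group of 4 untreated LEGSKO libraries, and 8 libraries of cortical fiber cells from LEGSKO+BSO and WT lenses, were used only where named. The dose, route and duration of BSO, the driver of the deletion and the age and sex of the animals were not given in the labels. It is not stated whether the 4 libraries of a group are separate animals, so the p-values measure the spread between these libraries, which may be partly technical.

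The lens epithelium is a single sheet of cells under the front of the capsule. It takes up nutrients, pumps ions for the whole lens, and divides to supply new fiber cells. Glutathione, made from cysteine and glutamate by glutamate-cysteine ligase and then glutathione synthetase, is the main small thiol of the lens, where it is used to reduce peroxides and to conjugate reactive aldehydes. Its loss with age is a known feature of cataract.

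Gclc, the deleted gene (Entrez 14629, GRCm38 chromosome 9, 77754535 to 77794489), had 108, 81.1, 89.6 and 63.6 CPM in LEGSKO+BSO epithelia, against 95.9, 71.3, 80.4 and 66.6 CPM in WT epithelia, in overlapping ranges. Counts are summed over the gene and which exons are deleted is not given, so this level does not check the knockout.

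The markers fitted the labelled tissue. Pax6, the eye field transcription factor, stood at 654 ± 32.5 CPM in LEGSKO+BSO and 592 ± 54.3 CPM in WT epithelia (SD, n = 4 each), where CPM is the count of a gene scaled to a common library total. The epithelial cadherin Cdh1 stood at 477 ± 46.1 CPM in LEGSKO+BSO and 521 ± 73.6 CPM in WT epithelia, and the lens transcription factor Pitx3 at 77.6 ± 9.86 CPM in LEGSKO+BSO and 78.7 ± 5.63 CPM in WT epithelia. Crystallin genes, the lens structural protein genes that are strongest in fiber cells, took 7.07 to 13.2% of all counts in LEGSKO+BSO and 10.9 to 14.7% in WT libraries. Total counts were 19.3 to 33.9 M in LEGSKO+BSO and 20.6 to 24.2 M in WT libraries, and the common biological coefficient of variation of the epithelial libraries was 14.2%.

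Of 15089 genes tested, 177 (1.17%) passed an adjusted p of 0.05 with edgeR's quasi-likelihood test, adjusted by Benjamini-Hochberg. In LEGSKO+BSO epithelia 120 genes (0.795%) were higher and 57 (0.378%) lower. Most differences were small: 141 were under 2-fold, whereas 29 increases and 7 decreases reached 2-fold. In 165 of the 177 the 4 LEGSKO+BSO values did not overlap the 4 WT values, a pattern found in 3.99% of all genes tested in the higher direction and 3.64% in the lower. The median log2 fold change of all genes tested was -0.01, with 7192 genes above 0 and 7897 below. Counts of list members below are to be read against these shares over all genes. The count of 177 calls depended on the libraries. It was 41 without LEGSKO+BSO library 1, 324 without 2, 56 without 3 and 76 without 4. Without WT libraries 1, 2, 3 and 4 it was 179, 56, 114 and 192. Of the 61 named genes that were called, 17 kept an adjusted p below 0.05 in all 14 settings run, 11 of them higher (Tacr3, Cfi, Mt1, Slc14a1, Mt2, Car9, Fam181a, Krt15, Osgin1, Foxe3 and Alad) and 6 lower (Kcnd3, Adgrl2, Cacna1h, Ephb2, Cacna1i and Wsb1).

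**Figure D1:**
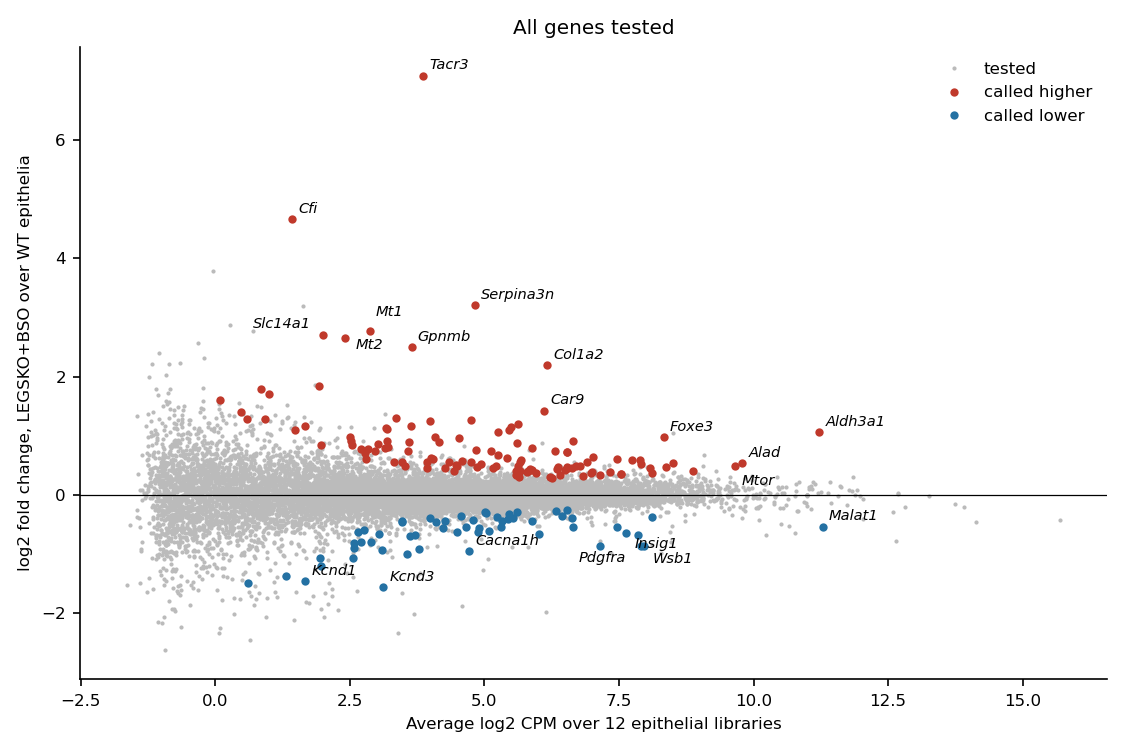
Each point is 1 of the 15089 genes tested, with its average log2 CPM over 12 epithelial libraries on the x axis and its log2 fold change, LEGSKO+BSO over WT epithelia, on the y axis. The 120 genes called higher are red, the 57 called lower are blue, and Tacr3 stands alone at the top.

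The gene with the highest fold change was Tacr3, which encodes the neurokinin 3 receptor, a G protein-coupled receptor for the peptide neurokinin B (Entrez 21338, GRCm38 chromosome 3, 134829007 to 134934581). It had 22.1, 17.0, 16.2 and 21.9 CPM in LEGSKO+BSO epithelia, against 0.291, 0.148, 0 and 0.130 CPM in WT epithelia. The groups were far apart, and WT epithelia held almost no reads: 6, 3, 0 and 3 in libraries 1 to 4, against 590, 337, 320 and 775 reads in LEGSKO+BSO. The fitted difference was 136-fold (log2 7.08 ± 0.32 SE, adjusted p = 1.08e-08). With so few WT reads the size of the fold is loose, 205-fold without WT library 1, while the direction and the call held without any 1 library. In bulk tissue a level per cell and a number of expressing cells cannot be told apart, here or below. Untreated LEGSKO epithelia stood at 23.8 ± 4.47 CPM (SD, n = 4), and the direct difference between LEGSKO+BSO and LEGSKO epithelia was not called (log2 -0.30 ± 0.18 SE, adjusted p = 0.367). The comparisons of both LEGSKO groups with WT share the WT libraries.

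Cfi, complement factor I, a serine protease that inactivates the complement fragments C3b and C4b (Entrez 12630, chromosome 3, 129836727 to 129875332), had 3.53, 2.62, 3.89 and 4.53 CPM in LEGSKO+BSO epithelia, against 0.387, 0.197, 0 and 0 CPM in WT epithelia. WT libraries 3 and 4 held no read and libraries 1 and 2 held 8 and 4, against 52 to 160 reads in LEGSKO+BSO. The fitted difference was 25.4-fold (log2 4.66 ± 0.56 SE, edgeR adjusted p = 0.00121), and 56.1-fold without WT library 1. Cfi stood at 3.88 ± 0.827 CPM in untreated LEGSKO epithelia (SD, n = 4). The direct difference between LEGSKO+BSO and LEGSKO epithelia was not called (log2 -0.08 ± 0.39 SE, edgeR adjusted p = 0.926).

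Serpina3n, a secreted serine protease inhibitor that is induced in acute phase responses (Entrez 20716, chromosome 12, 104406646 to 104414334), had 31.9, 15.7, 66.0 and 163 CPM in LEGSKO+BSO epithelia, against 8.82, 6.02, 6.67 and 8.55 CPM in WT epithelia. All LEGSKO+BSO libraries lay above all WT libraries, but they were widely spread, library 2 the lowest and library 4 the highest, while WT libraries were close together. The difference was 9.24-fold (log2 3.21 ± 0.54 SE, edgeR adjusted p = 0.0110), 5.03-fold without LEGSKO+BSO library 4, and missed the threshold without WT library 2 (adjusted p = 0.0530).

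Cfi and Serpina3n belong to a list of 32 tested complement, acute phase and interferon genes. Of these 2 rose and 1 fell, against 0.795% and 0.378% of all genes tested (list median log2 fold change 0.12, against -0.01 over all genes). The one that fell was Ifit1, an interferon-induced RNA-binding protein, at 6.29 ± 1.26 CPM in LEGSKO+BSO and 9.89 ± 1.18 CPM in WT epithelia (1.58-fold lower, adjusted p = 0.0452), which lost its call without LEGSKO+BSO library 1, 2 or 4 or WT library 2, 3 or 4 (highest adjusted p = 0.142). Complement C3 (log2 -0.09) and the lens chaperone clusterin Clu (log2 -0.02) were not called. The summed CPM of 7 tested immune cell markers was 3.64 to 18.3 in LEGSKO+BSO and 2.52 to 11.02 in WT libraries, none of the 7 was called by edgeR or DESeq2 (1 had an unadjusted p below 0.05), and the T cell marker Cd3e held under 10 reads in every library. Macrophage markers were detected: Lyz2 held 52, 86, 7 and 172 reads in LEGSKO+BSO, against 17, 18, 24 and 31 reads in WT libraries, and Csf1r held 30, 86, 4 and 38 reads in LEGSKO+BSO, against 16, 0, 50 and 2 reads in WT libraries, in overlapping ranges. The part of immune cells in these values was not tested.

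**Figure D2:**
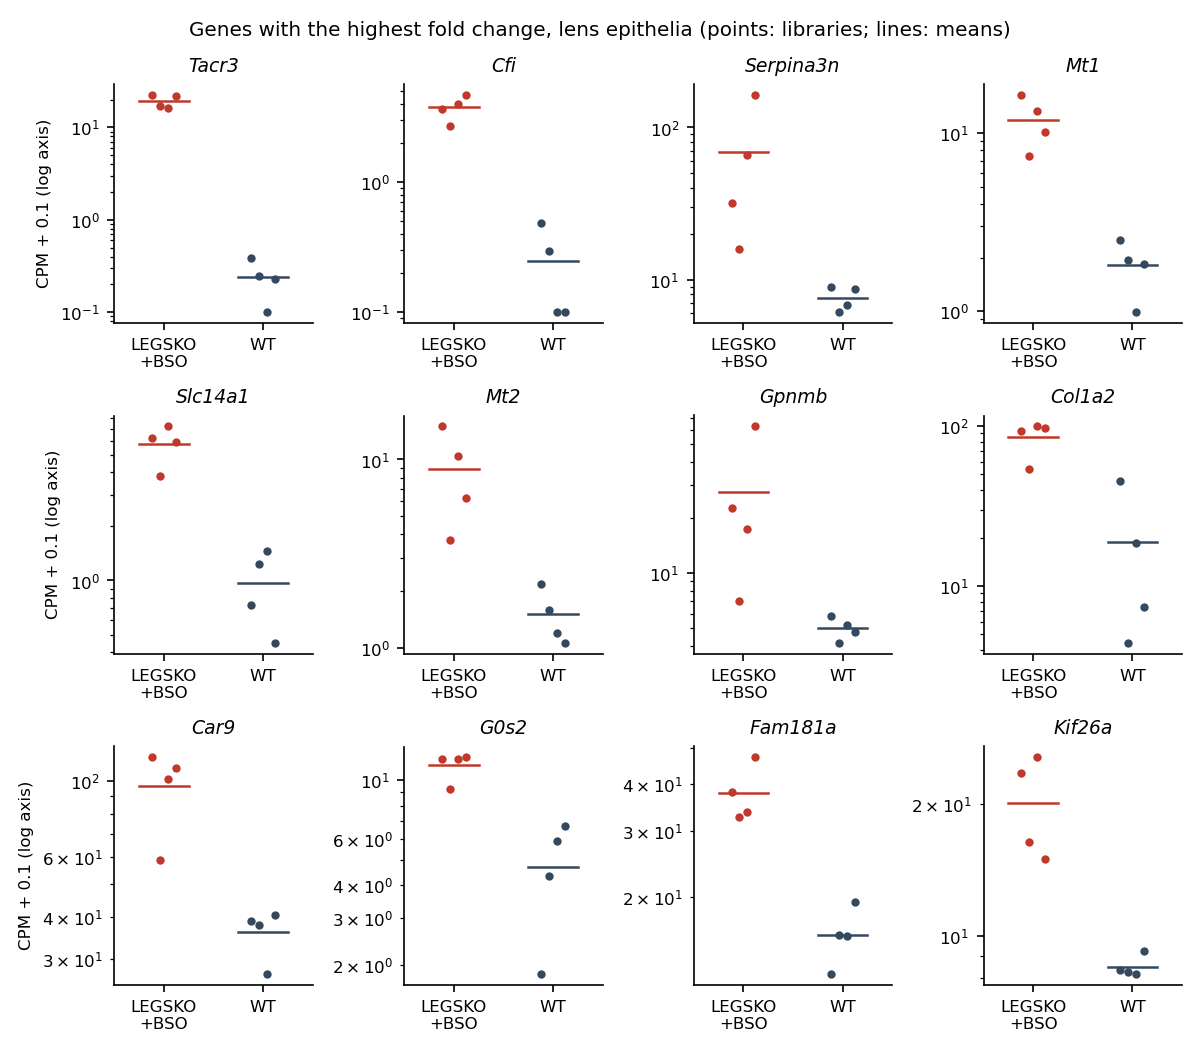
CPM + 0.1 on a log axis in each of the 4 LEGSKO+BSO (left) and 4 WT epithelial libraries (right), with the group mean as a line, for the 12 genes with the highest fold change among those chosen for groups that do not overlap. Tacr3 and Cfi are near the floor in WT, and Serpina3n and Gpnmb are the most spread in LEGSKO+BSO.

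Metallothioneins are small cysteine-rich proteins that bind zinc and copper, and their genes are switched on through metal response elements in the promoter by the zinc sensor MTF-1. Mt1 (Entrez 17748, chromosome 8, 94178883 to 94180327) had 16.2, 7.34, 13.2 and 10.1 CPM in LEGSKO+BSO epithelia, against 2.42, 1.83, 0.887 and 1.74 CPM in WT epithelia. It was 6.85-fold higher (log2 2.78 ± 0.28 SE, edgeR adjusted p = 0.000257), with every LEGSKO+BSO library above every WT library. Its neighbour Mt2 (Entrez 17750, chromosome 8, 94172618 to 94173567) had 14.9, 3.62, 10.3 and 6.17 CPM in LEGSKO+BSO epithelia, against 2.08, 1.48, 1.10 and 0.955 CPM in WT epithelia. It was 6.27-fold higher (log2 2.65 ± 0.41 SE, adjusted p = 0.00730), also without overlap. LEGSKO+BSO library 1 was the highest and library 2 the lowest for both genes. Both calls held without any 1 library. Mt1 and Mt2 are related genes, and 73.5% of the exon bases of Mt2 overlap the antisense gene Gm45774. In LEGSKO+BSO fibers, described below, Mt1 held 28.1 to 35.9 CPM and Mt2 0.402 to 0.506 CPM, so few Mt1 reads were counted as Mt2 there. The split of reads between the genes in epithelia was not tested.

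The promoters of Mt1 and Mt2 are shown because both genes rose and lie side by side. The stretches run from 250 bases before to 50 after the start site in RefSeq (GRCm38.p6), plus strand, chr8:94178839-94179138 for Mt1 and chr8:94172368-94172667 for Mt2, and capitals mark TGCACNC or TGCGCNC, the core of a metal response element, on either strand.
Mt1: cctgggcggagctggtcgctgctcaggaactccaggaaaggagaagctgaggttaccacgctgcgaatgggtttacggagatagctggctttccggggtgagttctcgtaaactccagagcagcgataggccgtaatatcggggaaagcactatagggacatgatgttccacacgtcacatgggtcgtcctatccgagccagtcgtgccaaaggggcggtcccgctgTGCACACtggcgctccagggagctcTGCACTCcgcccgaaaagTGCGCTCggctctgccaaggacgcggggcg
Mt2: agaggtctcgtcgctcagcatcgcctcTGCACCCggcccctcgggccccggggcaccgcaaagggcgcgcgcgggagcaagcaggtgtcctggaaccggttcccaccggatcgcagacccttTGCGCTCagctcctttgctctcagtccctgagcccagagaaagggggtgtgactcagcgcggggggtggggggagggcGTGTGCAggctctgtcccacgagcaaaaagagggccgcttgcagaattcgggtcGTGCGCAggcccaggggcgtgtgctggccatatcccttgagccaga
The start site used for Mt2 is the first base of the gene as given above. That used for Mt1 lies inside the gene, which begins at 94178883. The Mt1 stretch held 3 matches and the Mt2 stretch 4. Of 32851 promoter stretches of the same length, 25.7% held at least 1 match, 1.97% held 3 or more and 0.517% held 4 or more. Of the other called members of the list described next, Tfrc held 2 overlapping matches in 1 of its 2 stretches and Steap3 held none in its 4. A match describes the letters and was not tested as a binding site.

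Of 24 tested genes for metallothioneins, zinc and iron, 3 rose and 1 fell (median log2 0.06), against 0.795% and 0.378% of all genes tested. Steap3, an endosomal ferrireductase, had 45.7, 49.7, 51.6 and 61.6 CPM in LEGSKO+BSO epithelia, against 15.7, 21.8, 30.0 and 32.3 CPM in WT epithelia, which did not overlap (2.09-fold higher, adjusted p = 0.0118, 0.0544 without WT library 2). Tfrc, the transferrin receptor that brings iron into cells, had 238, 231, 253 and 271 CPM in LEGSKO+BSO epithelia, against 306, 346, 317 and 322 CPM in WT epithelia. It was 1.30-fold lower without overlap (adjusted p = 0.0258), and not called without LEGSKO+BSO library 1 or 3 or WT library 2 or 3 (highest adjusted p = 0.107). The zinc exporter Slc30a1, a textbook partner of the metallothioneins in the response to zinc, stood at 40.6 ± 3.23 CPM in LEGSKO+BSO and 36.0 ± 1.97 CPM in WT epithelia and was not called (adjusted p = 0.330). The ferritin subunits Fth1 (log2 0.10) and Ftl1 (log2 0.19) were not called.

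The genes of glutathione synthesis themselves did not pass the test. Gclc differed by a log2 value of 0.12 ± 0.16 (SE, edgeR adjusted p = 0.766), which was -0.010 without LEGSKO+BSO library 1. Gclm, the modifier subunit, had 58.3, 66.0, 54.1 and 37.1 CPM in LEGSKO+BSO epithelia, against 46.4, 47.1, 46.0 and 37.7 CPM in WT epithelia (log2 0.28 ± 0.18 SE, adjusted p = 0.493). Gss, glutathione synthetase, had 128, 204, 135 and 101 CPM in LEGSKO+BSO epithelia, against 161, 181, 166 and 133 CPM in WT epithelia (log2 -0.17 ± 0.18 SE, adjusted p = 0.704). The cystine transporter subunit Slc7a11 stood at 1089 ± 52.8 CPM in LEGSKO+BSO and 915 ± 146 CPM in WT epithelia (adjusted p = 0.262), and glutathione reductase Gsr at 12.9 ± 1.10 CPM in LEGSKO+BSO and 11.2 ± 2.84 CPM in WT epithelia (adjusted p = 0.562).

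Of 22 tested genes of glutathione synthesis and recycling, 1 rose and none fell (median log2 0.09). The one was G6pdx, which starts the pentose phosphate pathway and so supplies NADPH to glutathione reductase. It had 120.0, 78.0, 94.6 and 89.5 CPM in LEGSKO+BSO epithelia, against 64.7, 72.4, 69.3 and 70.5 CPM in WT epithelia, with LEGSKO+BSO library 1 the highest and no overlap (1.38-fold higher, adjusted p = 0.0391). The call was lost without LEGSKO+BSO library 1, 3 or 4 or any 1 WT library (highest adjusted p = 0.101), and 13.6% of its exon bases overlap Ikbkg on the other strand, which was not called (log2 0.07).

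Among 26 peroxide and thiol reductases 1 rose and none fell (median log2 0.06). Gpx4, which uses glutathione to reduce lipid peroxides, had 483, 314, 481 and 366 CPM in LEGSKO+BSO epithelia, against 317, 273, 268 and 269.6 CPM in WT epithelia. LEGSKO+BSO libraries 1 and 3 were the highest, and LEGSKO+BSO library 2 fell just below WT library 1 (1.46-fold higher, adjusted p = 0.0480). The call was lost without LEGSKO+BSO library 1, 3 or 4 or WT library 2, 3 or 4 (highest adjusted p = 0.161). Gpx1 (log2 0.12), catalase Cat (log2 -0.14) and thioredoxin reductase Txnrd1 (log2 0.25) were not called.

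Among 22 glutathione S-transferases, which join glutathione to electrophiles, 1 rose and none fell (median log2 0.13). The omega-class enzyme Gsto1 had 44.5, 43.4, 40.7 and 51.8 CPM in LEGSKO+BSO epithelia, against 29.2, 34.3, 33.7 and 32.5 CPM in WT epithelia, without overlap (1.39-fold higher, adjusted p = 0.0314), and was not called without LEGSKO+BSO library 1 or 4 or WT library 1, 2 or 3 (highest adjusted p = 0.0893).

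NRF2 is the transcription factor that raises detoxification and thiol genes under oxidative stress. Of 26 tested target genes 2 rose, against 0.795% of all genes tested, and none fell. On the log2 scale 23 of the 26 were above 0, as were 7192 of all 15089 genes tested (list median 0.14, against -0.01 over all genes). Beside G6pdx the called gene was Osgin1, an oxidative stress-induced growth inhibitor, with 12.99, 10.97, 13.1 and 10.1 CPM in LEGSKO+BSO epithelia, against 4.21, 5.08, 6.97 and 5.12 CPM in WT epithelia. The ranges were apart, and it was 2.20-fold higher (log2 1.14 ± 0.17 SE, edgeR adjusted p = 0.00533) and called without any 1 library. The classical targets Nqo1, at 25.8 ± 1.27 CPM in LEGSKO+BSO and 23.0 ± 4.62 CPM in WT epithelia (adjusted p = 0.552), Hmox1, at 17.999 ± 9.72 CPM in LEGSKO+BSO and 16.8 ± 4.89 CPM in WT epithelia (adjusted p = 0.904), and Srxn1, at 20.3 ± 2.11 CPM in LEGSKO+BSO and 18.3 ± 1.65 CPM in WT epithelia (adjusted p = 0.504), were not called. Nfe2l2, which encodes NRF2, was at log2 0.03. The called members were searched for TGACNNNGC, the core of an antioxidant response element, on both strands of the same promoter window. G6pdx held 1 match and Osgin1 none, against 12.4% of all promoter stretches with at least 1. The Osgin1 stretch searched, chr8:119436897-119437196, lies inside the gene, which begins at 119425882. The region around that outer start was not searched.

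Of 27 tested genes of aldehyde and carbonyl detoxification 2 rose, against 0.795% of all genes tested, and none fell (median log2 -0.08). Aldh3a1, an aldehyde dehydrogenase known as a soluble crystallin of the cornea, had 3054, 2748, 3019.6 and 3882 CPM in LEGSKO+BSO epithelia, against 734, 1442, 1992 and 1934 CPM in WT epithelia. Every LEGSKO+BSO library was above every WT library, and WT library 1 was the lowest of all (2.08-fold higher, log2 1.06 ± 0.23 SE, edgeR adjusted p = 0.0436). It lost the call without LEGSKO+BSO library 1, 3 or 4 or WT library 2 (highest adjusted p = 0.120). Akr1b3, aldose reductase, which turns glucose into sorbitol and also reduces aldehydes, had 195, 168, 202 and 209 CPM in LEGSKO+BSO epithelia, against 165, 140.3, 152 and 151 CPM in WT epithelia (1.27-fold higher, adjusted p = 0.0452). Its counts are identical to those of the pseudogene Gm6644 in every library, so that the 177 genes rest on 176 distinct rows of counts. The Akr1b3 call was lost without LEGSKO+BSO library 1, 3 or 4 or WT library 2, 3 or 4 (highest adjusted p = 0.149).

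Of 21 tested genes that mark the lens epithelium, 1 rose and 1 fell (median log2 0.02), against 1.17% of all genes tested called in either direction. Foxe3, a forkhead transcription factor needed to keep the lens epithelium (Entrez 30923, chromosome 4, 114924443 to 114926067), had 468, 444, 469 and 538 CPM in LEGSKO+BSO epithelia, against 272, 298, 189.8 and 215 CPM in WT epithelia. The lowest LEGSKO+BSO library was well above the highest WT library, and the difference was 1.97-fold (log2 0.98 ± 0.15 SE, edgeR adjusted p = 0.00765), called without any 1 library. Pdgfra, the PDGF receptor through which lens epithelial cells are known to be driven to divide, had 147, 219.7, 167 and 158 CPM in LEGSKO+BSO epithelia, against 475, 251, 252 and 275 CPM in WT epithelia. It was 1.81-fold lower (adjusted p = 0.0391) with WT library 1 far above the others, and lost the call without LEGSKO+BSO library 1, 3 or 4 or WT library 2 (highest adjusted p = 0.135). Pax6 (log2 0.14), Cdh1 (log2 -0.13), Pitx3 (log2 -0.02) and Sfrp1 (log2 -0.21) were not called.

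Fiber genes lay below WT without reaching the threshold. Of 37 lens fiber and crystallin genes none was called by edgeR, 2 were called by DESeq2, and 13 had an unadjusted p below 0.05, as had 14.8% of all genes tested (2232 of 15089), the share against which such counts below are to be read. Their median log2 fold change was -0.35, and 32 of the 37 were below 0, as were 7897 of all 15089 genes tested. The lowest was Crygf, a gamma crystallin, at log2 -1.65 (adjusted p = 0.138), and the gamma crystallins are near-identical copies whose counts can be exchanged. Cryab, a small heat shock protein of lens and muscle, stood at 14176 ± 2607 CPM in LEGSKO+BSO and 16410.1 ± 3115 CPM in WT epithelia (adjusted p = 0.552). The crystallin share of each library, given above, moves with these genes, and the part of carried-over fiber RNA was not tested.

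**Figure D3:**
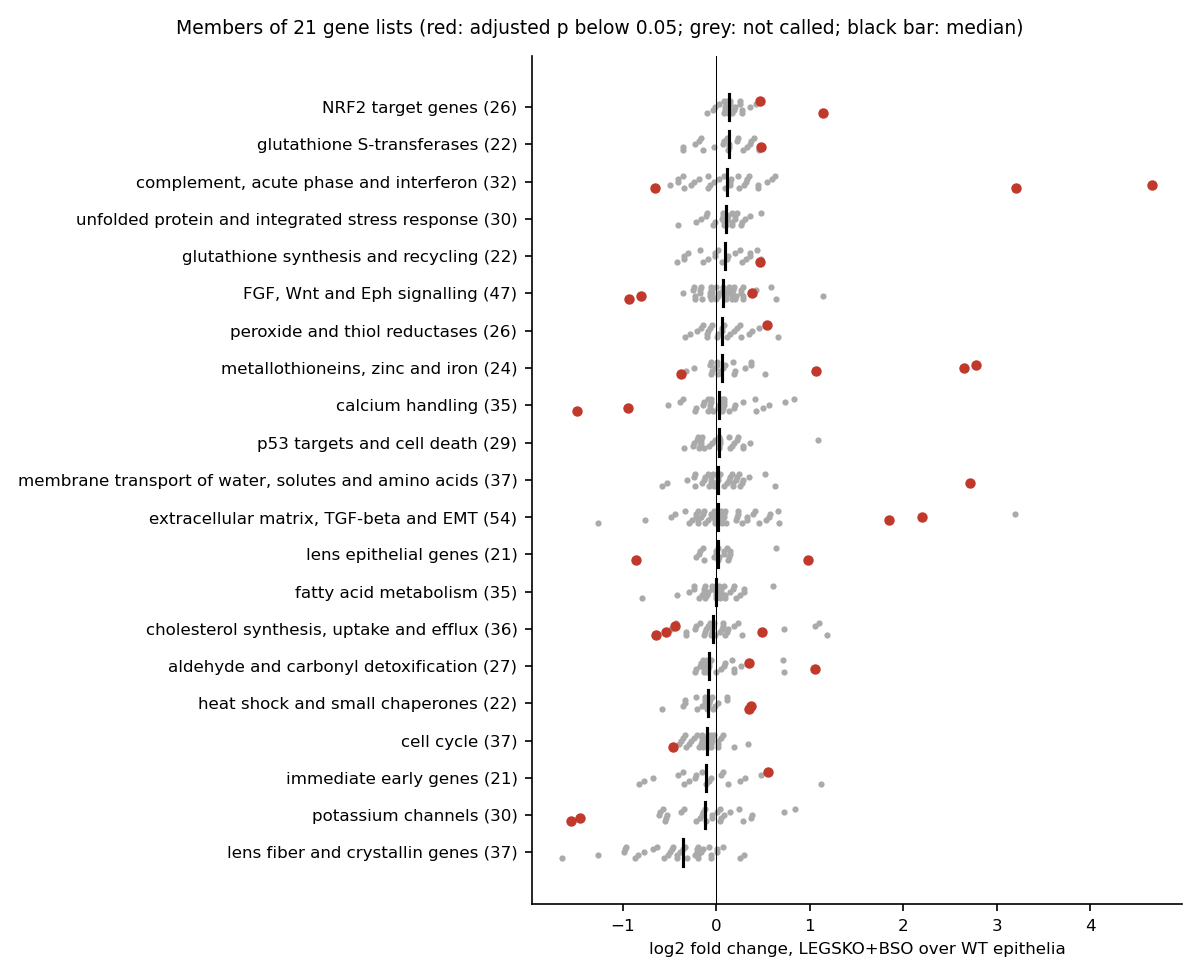
Log2 fold change, LEGSKO+BSO over WT epithelia, of the tested members of 21 gene lists, 1 list per row with its number of tested members in brackets. Red points passed an adjusted p of 0.05, grey points did not, and the black bar is the list median, which is lowest at -0.35 for the lens fiber and crystallin genes.

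Ion channel genes were among the largest decreases. The 12 highest and 12 lowest genes were named only if their groups did not overlap, so that for them the gap between groups follows from the choice. Kcnd3, the pore subunit Kv4.3 of the fast inactivating A-type potassium current (Entrez 56543, chromosome 3, 105451890 to 105674002), had 5.33, 5.73, 5.10 and 3.91 CPM in LEGSKO+BSO epithelia, against 19.96, 16.6, 10.9 and 11.3 CPM in WT epithelia. It was 2.94-fold lower (log2 -1.55 ± 0.19 SE, edgeR adjusted p = 0.00122), with no overlap and a call that held without any 1 library. Kcnd1, the related pore subunit Kv4.1, had 1.65, 2.67, 1.57 and 1.501 CPM in LEGSKO+BSO epithelia, against 4.60, 5.48, 3.72 and 6.30 CPM in WT epithelia. It was 2.74-fold lower (adjusted p = 0.0115), also without overlap, and missed the threshold without LEGSKO+BSO library 1 or 3 (highest adjusted p = 0.0552). These were the only called members of 30 tested potassium channel genes (median log2 -0.12). Kcnip1 (log2 -0.57) and Kcnip4 (log2 -0.22), auxiliary subunits of the same channels, were not called.

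Low-voltage activated (T-type) calcium channels open near the resting potential. Cacna1h, the pore subunit Cav3.2 (Entrez 58226, chromosome 17, 25374285 to 25436334), had 16.4, 13.8, 19.6 and 21.2 CPM in LEGSKO+BSO epithelia, against 40.8, 30.0, 32.0 and 34.5 CPM in WT epithelia. It was 1.93-fold lower (log2 -0.95 ± 0.15 SE, edgeR adjusted p = 0.00721). Cacna1i, the pore subunit Cav3.3 (Entrez 239556, chromosome 15, 80287238 to 80398292), had 9.23, 10.1, 8.38 and 10.1 CPM in LEGSKO+BSO epithelia, against 18.6, 15.9, 17.8 and 19.4 CPM in WT epithelia and was 1.89-fold lower (log2 -0.92 ± 0.11 SE, adjusted p = 0.00121). In both genes the highest LEGSKO+BSO library was below the lowest WT library, and both calls held without any 1 library. The remaining T-type subunit, Cacna1g, stood at 4.02 ± 0.872 CPM in LEGSKO+BSO and 2.71 ± 0.600 CPM in WT epithelia and was not called (log2 0.56 ± 0.23 SE, adjusted p = 0.257).

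The calcium handling list holds Cacna1h and Cacna1g but not Cacna1i. Of its 35 tested genes 2 fell, Cacna1h among them, against 0.378% of all genes tested, and none rose (median log2 0.03). The other was Slc8a3, the sodium-calcium exchanger NCX3, with 0.713, 0.754, 0.959 and 0.708 CPM in LEGSKO+BSO epithelia, against 3.15, 1.43, 2.74 and 1.48 CPM in WT epithelia. These are low counts, 2.81-fold lower without overlap (adjusted p = 0.0430), and the call was lost without any 1 LEGSKO+BSO library or WT library 1 or 3 (highest adjusted p = 0.135). The markers of retinal neurons and photoreceptors, cells that also express such channels, lay the same way: 20 of 22 tested markers were below 0 on the log2 scale (median -1.50), none was called by edgeR or DESeq2, 10 had an unadjusted p below 0.05, and their summed CPM was 42.4 to 186 in LEGSKO+BSO and 113 to 562 in WT libraries. WT library 1 held the highest sum, 562 CPM, and also the highest Kcnd3, Cacna1h and Slc8a3 values. Without that library Kcnd3 and Cacna1h were still called, and the median of the retinal markers was -1.02. WT library 4, with a sum of 335 CPM, held the highest Kcnd1 and Cacna1i values. Without WT library 4 these 2 genes were still called. The retinal markers were still lower without WT library 1, so these calls do not measure retinal RNA. The part of retinal RNA in the channel genes was not tested.

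**Figure D4:**
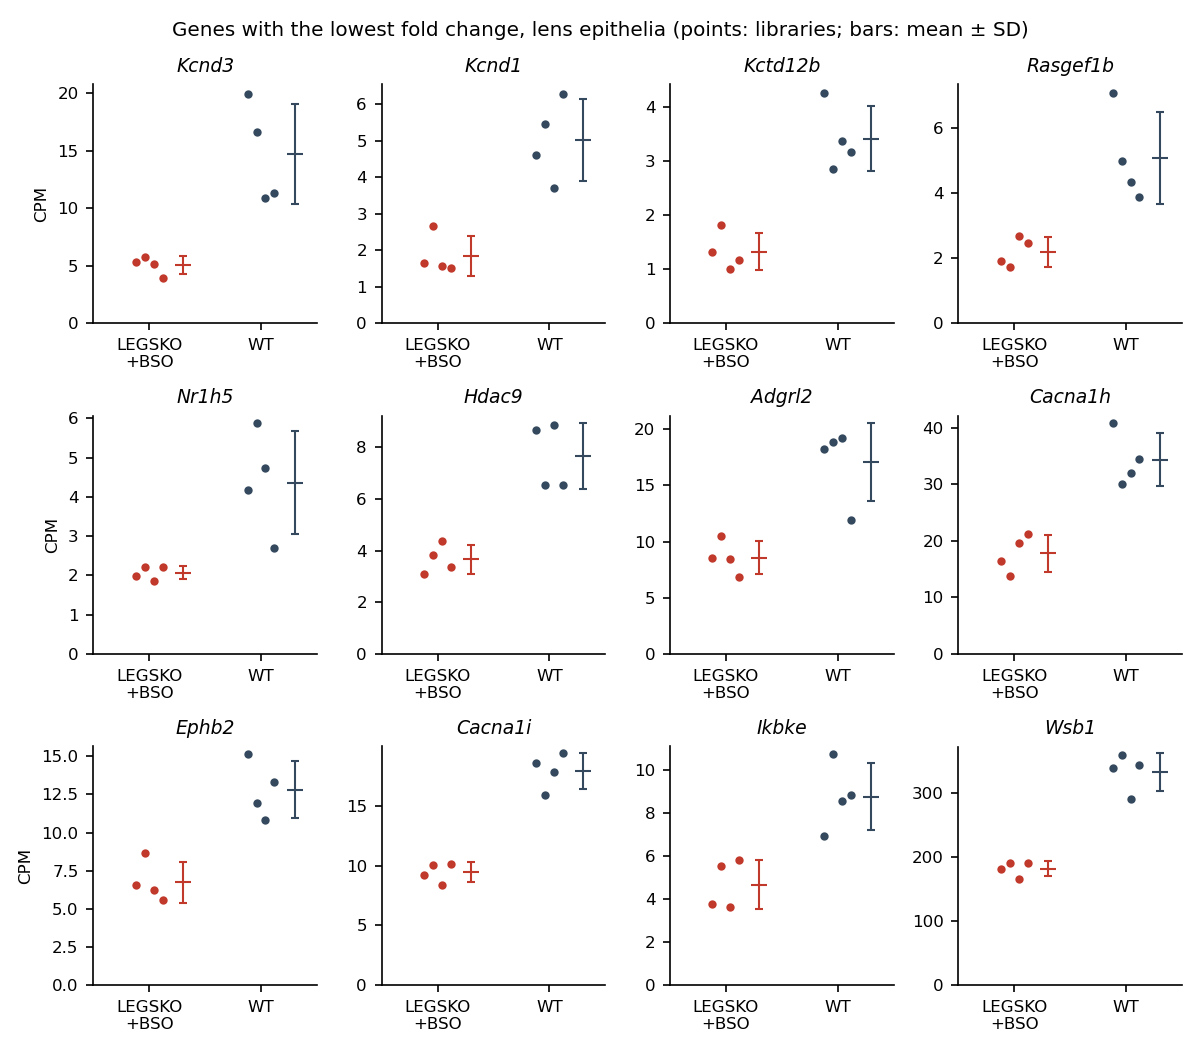
CPM in each of the 4 LEGSKO+BSO (left) and 4 WT epithelial libraries (right) on linear axes from 0 with mean ± SD beside the points, for the 12 genes with the lowest fold change among those chosen for groups that do not overlap. Wsb1 and Cacna1i show the tightest groups.

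Among the other strong decreases, Wsb1, a substrate receptor of an E3 ubiquitin ligase (Entrez 78889, chromosome 11, 79239382 to 79254709), had 182, 191, 165 and 191 CPM in LEGSKO+BSO epithelia, against 339, 359, 291 and 345 CPM in WT epithelia. It was 1.83-fold lower (log2 -0.87 ± 0.08 SE, edgeR adjusted p = 0.000206), and its groups were tight and apart. Adgrl2, the adhesion receptor latrophilin 2, had 8.56, 10.5, 8.43 and 6.88 CPM in LEGSKO+BSO epithelia, against 18.3, 18.9, 19.2 and 11.9 CPM in WT epithelia (2.00-fold lower, adjusted p = 0.00730). Only WT library 4 came near the LEGSKO+BSO values. Both genes were called without any 1 library. Hdac9, a class IIa histone deacetylase, had 3.12, 3.82, 4.39 and 3.37 CPM in LEGSKO+BSO epithelia, against 8.67, 6.56, 8.87 and 6.56 CPM in WT epithelia (2.09-fold lower, adjusted p = 0.0133, 0.0625 without LEGSKO+BSO library 1). Rasgef1b, an exchange factor for RAS-family GTPases, had 1.91, 1.71, 2.68 and 2.46 CPM in LEGSKO+BSO epithelia, against 7.07, 4.98, 4.35 and 3.86 CPM in WT epithelia (2.30-fold lower, adjusted p = 0.0202), and Nr1h5, the nuclear receptor FXR beta, had 1.99, 2.21, 1.87 and 2.21 CPM in LEGSKO+BSO epithelia, against 4.17, 5.87, 4.73 and 2.69 CPM in WT epithelia (2.10-fold lower, adjusted p = 0.0305). Neither overlapped between groups. Rasgef1b lost the call without LEGSKO+BSO library 1 or WT library 2 (highest adjusted p = 0.0891), and Nr1h5 without LEGSKO+BSO library 1, 3 or 4 or WT library 2 or 3 (highest adjusted p = 0.107).

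The 2 remaining genes of the 12 with the lowest fold change that are not described elsewhere were Kctd12b and Ikbke. Kctd12b stood at 1.32 ± 0.348 CPM in LEGSKO+BSO and 3.42 ± 0.602 CPM in WT epithelia (2.59-fold lower, adjusted p = 0.0452), and Ikbke, a kinase of the interferon pathway, at 4.68 ± 1.15 CPM in LEGSKO+BSO and 8.78 ± 1.57 CPM in WT epithelia (1.87-fold lower, adjusted p = 0.0391). Kctd12b lost the call without LEGSKO+BSO library 1, 3 or 4 or any 1 WT library (highest adjusted p = 0.149), and Ikbke without LEGSKO+BSO library 1 or 3 or WT library 2, 3 or 4 (highest adjusted p = 0.135).

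Slc14a1, the urea transporter UT-B (Entrez 108052, chromosome 18, 78100091 to 78142119), had 6.08, 3.72, 7.12 and 5.83 CPM in LEGSKO+BSO epithelia, against 0.630, 1.13, 1.35 and 0.347 CPM in WT epithelia. Groups did not overlap, reads were 74 to 206 in LEGSKO+BSO and 8 to 32 in WT libraries, and the difference was 6.54-fold (log2 2.71 ± 0.47 SE, edgeR adjusted p = 0.0129), called without any 1 library. It was the only called member of 37 tested genes of membrane transport (median log2 0.02). Car9, a carbonic anhydrase of the cell surface, had 117, 58.4, 101 and 109 CPM in LEGSKO+BSO epithelia, against 38.8, 37.6, 27.1 and 40.4 CPM in WT epithelia. LEGSKO+BSO library 2 was the lowest of its group but above all WT libraries (2.68-fold higher, log2 1.42 ± 0.22 SE, adjusted p = 0.00644, called without any 1 library), and 9.29% of its exon bases overlap the antisense gene Gm12454.

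G0s2, an inhibitor of adipose triglyceride lipase, had 11.97, 9.20, 11.97 and 12.1 CPM in LEGSKO+BSO epithelia, against 1.74, 4.24, 5.78 and 6.60 CPM in WT epithelia, without overlap (2.45-fold higher, adjusted p = 0.0343). Its call was lost without LEGSKO+BSO library 1, 3 or 4 or WT library 2 (highest adjusted p = 0.107). Kif26a, an atypical kinesin, had 23.5, 16.2, 25.5 and 14.9 CPM in LEGSKO+BSO epithelia, against 8.23, 8.14, 8.07 and 9.12 CPM in WT epithelia (2.38-fold higher, adjusted p = 0.0110, 0.0502 without LEGSKO+BSO library 1). Fam181a had 37.9, 32.6, 33.7 and 47.1 CPM in LEGSKO+BSO epithelia, against 12.3, 15.7, 15.6 and 19.3 CPM in WT epithelia (2.41-fold higher, log2 1.27 ± 0.14 SE, adjusted p = 0.000459), with no overlap, and stayed called without any 1 library.

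Of 36 tested genes of cholesterol synthesis, uptake and efflux, 3 fell and 1 rose (median log2 -0.04), against 0.378% of all genes tested called lower and 0.795% called higher. Insig1, which holds the sterol-sensing machinery in the endoplasmic reticulum and is itself a target of SREBP-2, had 152, 183, 148 and 166 CPM in LEGSKO+BSO epithelia, against 226, 271, 278 and 238 CPM in WT epithelia and was 1.56-fold lower without overlap (log2 -0.64 ± 0.12 SE, edgeR adjusted p = 0.0159). Hmgcs1, the synthase that makes HMG-CoA, had 84.9, 90.6, 80.7 and 74.7 CPM in LEGSKO+BSO epithelia, against 143, 106, 124 and 108 CPM in WT epithelia and was 1.45-fold lower without overlap (adjusted p = 0.0238). Fdft1, squalene synthase, had 34.8, 41.2, 34.6 and 31.4 CPM in LEGSKO+BSO epithelia, against 48.9, 40.2, 54.0 and 49.2 CPM in WT epithelia. LEGSKO+BSO library 2 lay above WT library 2, so that its groups overlapped (1.36-fold lower, adjusted p = 0.0498), and 18.3% of its exon bases overlap Ctsb on the other strand, which was not called (log2 0.11).

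Abca1, which exports cholesterol, had 131, 95.4, 135 and 135 CPM in LEGSKO+BSO epithelia, against 89.6, 89.0, 101 and 74.0 CPM in WT epithelia, with LEGSKO+BSO library 2 below WT library 3 (1.41-fold higher, adjusted p = 0.0442). Srebf2, which encodes SREBP-2, was at log2 -0.03 and was not called. Without 1 library the highest adjusted p was 0.0732 for Insig1 (lost without LEGSKO+BSO library 1 or 3 or WT library 2), 0.0872 for Hmgcs1 (lost without LEGSKO+BSO library 1, 3 or 4 or WT library 3), 0.150 for Fdft1 (lost without LEGSKO+BSO library 1, 3 or 4 or WT library 1, 3 or 4) and 0.148 for Abca1 (lost without LEGSKO+BSO library 1, 3 or 4 or WT library 1, 2 or 4).

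The Hmgcs1 promoter is shown because it was the called member of the list with a match to TCACNCCAC, the letters of a sterol regulatory element (both strands, same window, plus strand of chr13:119690101-119690400, GRCm38.p6, match in capitals).
Hmgcs1: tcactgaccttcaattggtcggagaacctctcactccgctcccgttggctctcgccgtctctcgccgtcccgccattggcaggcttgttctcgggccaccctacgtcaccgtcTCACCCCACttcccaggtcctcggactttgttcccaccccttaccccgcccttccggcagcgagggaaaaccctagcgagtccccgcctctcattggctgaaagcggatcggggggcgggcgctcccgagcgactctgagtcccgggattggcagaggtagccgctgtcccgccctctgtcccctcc
At least 1 such match was present in 1.24% of all promoter stretches. The Insig1 and Abca1 stretches held none, and Fdft1 is not in the table, which held 9 of the 10 called members of the metallothionein, NRF2 and cholesterol lists.

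Matrix genes rose in 2 of 54 tested and fell in none (median log2 0.02). Col1a2, the alpha 2 chain of type I collagen, had 92.6, 54.2, 99.6 and 97.6 CPM in LEGSKO+BSO epithelia, against 45.2, 4.29, 18.5 and 7.25 CPM in WT epithelia. LEGSKO+BSO library 2 was the lowest of its group yet above all WT libraries, and WT library 1 stood far above the other WT libraries (4.59-fold higher, log2 2.20 ± 0.48 SE, edgeR adjusted p = 0.0430, 8.53-fold without WT library 1). The call was lost without LEGSKO+BSO library 1, 3 or 4 or WT library 2, 3 or 4 (highest adjusted p = 0.116). Its partner chain Col1a1 stood at 1.02 ± 0.370 CPM in LEGSKO+BSO and 2.49 ± 0.874 CPM in WT epithelia and was not called (adjusted p = 0.170), and the stromal genes Col3a1 and Lum held under 10 reads in each of the 8 libraries.

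Tgfbi, a secreted matrix protein induced by TGF-beta, had 8.11, 3.07, 5.86 and 13.2 CPM in LEGSKO+BSO epithelia, against 1.79, 1.33, 3.80 and 1.48 CPM in WT epithelia. LEGSKO+BSO library 4 was the highest, and LEGSKO+BSO library 2 lay below WT library 3 (3.60-fold higher, edgeR adjusted p = 0.0391). It lost the call without LEGSKO+BSO library 1, 3 or 4 or WT library 1, 2 or 4 (highest adjusted p = 0.120). Tnc, tenascin C, had a log2 fold change of 3.20 ± 0.78 (SE) and did not pass (adjusted p = 0.0617). Tgfb2, the main TGF-beta of the eye, was at log2 -0.03, and the basement membrane collagen Col4a1 of the lens capsule at log2 -0.16, neither of them called.

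Gpnmb, a membrane glycoprotein found in melanosomes and in macrophages, had 22.4, 6.94, 17.2 and 62.6 CPM in LEGSKO+BSO epithelia, against 5.72, 4.04, 5.11 and 4.69 CPM in WT epithelia. LEGSKO+BSO library 4 was the highest and library 2 only just above WT (5.63-fold higher, log2 2.49 ± 0.48 SE, edgeR adjusted p = 0.0210). The fold was 3.18 without LEGSKO+BSO library 4, and the call was lost without LEGSKO+BSO library 1 or WT library 2 or 3 (highest adjusted p = 0.0749). Of 11 tested pigment cell markers it was the only one called (median log2 0.18), and their summed CPM was 362 to 425 in LEGSKO+BSO and 300.3 to 356 in WT libraries. Tyrosinase Tyr (log2 0.04), Tyrp1 (log2 0.12) and the melanin enzyme Dct, at 6.26 ± 1.65 CPM in LEGSKO+BSO and 2.67 ± 1.15 CPM in WT epithelia (adjusted p = 0.128), were not called. The part of pigment cells and macrophages in the Gpnmb value was not tested.

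Krt15 and Krt19 were the keratins that rose. Krt15, a keratin of basal epithelial cells, had 48.3, 59.6, 47.3 and 52.3 CPM in LEGSKO+BSO epithelia, against 12.8, 25.5, 26.6 and 29.1 CPM in WT epithelia and was 2.20-fold higher (log2 1.14 ± 0.18 SE, edgeR adjusted p = 0.00852), without overlap and without losing its call in any 1 library's absence. Krt19, a keratin of simple epithelia, had 142, 133, 132 and 108 CPM in LEGSKO+BSO epithelia, against 90.3, 82.5, 66.7 and 109 CPM in WT epithelia, with LEGSKO+BSO library 4 just below WT library 4 (1.48-fold higher, adjusted p = 0.0421). The Krt19 call was lost without LEGSKO+BSO library 1 or 3 or WT library 2 or 3 (highest adjusted p = 0.137). Both belong to a list of 10 corneal and conjunctival markers, 4 of which could be tested, 2 of them called higher, with a summed CPM of 178 to 203 in LEGSKO+BSO and 102 to 148 in WT libraries. The basal markers Krt5 and Trp63 held under 10 reads in each library. Of the other list members, Krt12, Krt13, Krt6a and Muc4 were high in 1 library, with 28, 38, 41 and 129 reads in LEGSKO+BSO library 4. These genes held at most 9 reads each in LEGSKO+BSO libraries 1 to 3 and 22 in WT libraries. Krt4 was detected in all 8 libraries, with 280, 190, 263 and 476 reads in LEGSKO+BSO, against 156, 198, 187 and 226 reads in WT. Krt14 held 0, 0, 2 and 7 reads in LEGSKO+BSO, against 2, 7, 1 and 13 reads in WT libraries. The part of corneal and conjunctival cells in the Krt15 and Krt19 values was not tested.

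**Figure D5:**
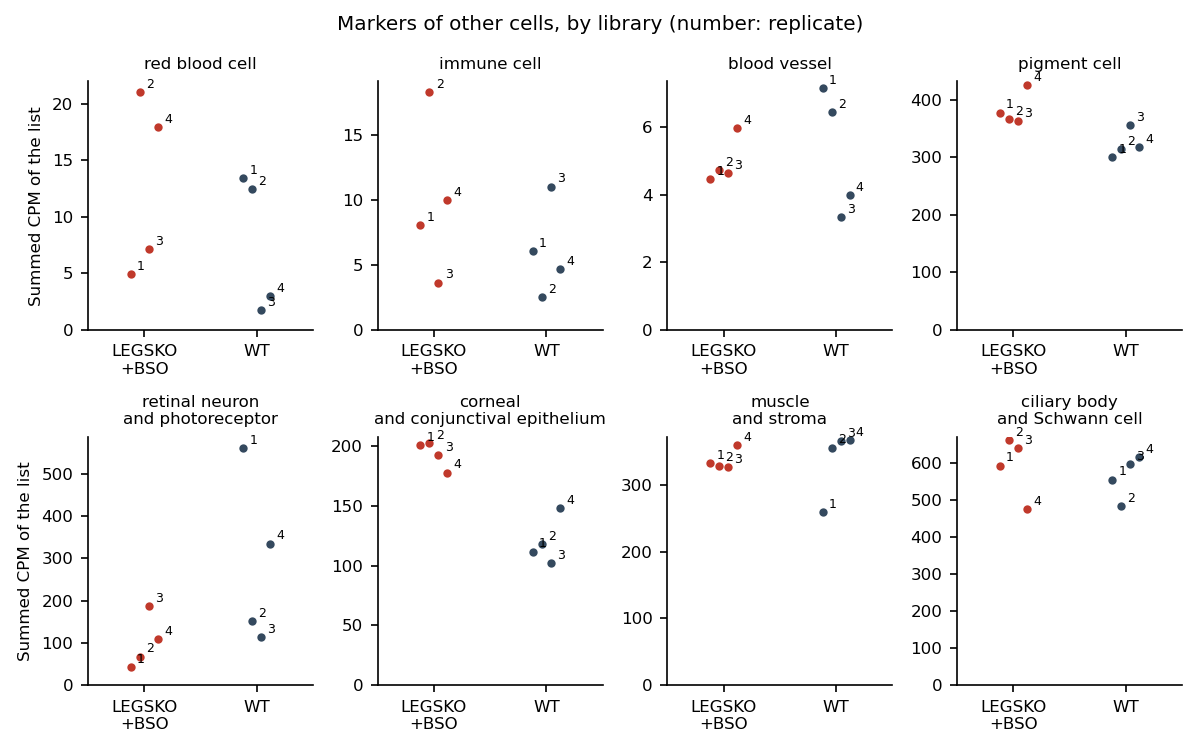
Summed CPM of 8 marker lists of cells other than lens epithelium, by library, LEGSKO+BSO on the left and WT on the right, with the replicate number beside each point. The corneal and pigment lists do not overlap between groups, retinal markers are highest in WT library 1, and the other lists overlap.

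The remaining marker lists overlapped between groups and held no call by edgeR or DESeq2, nor any gene with an unadjusted p below 0.05. The summed CPM was 4.92 to 21.02 in LEGSKO+BSO and 1.77 to 13.5 in WT libraries for red blood cell markers (4 of 7 tested), 4.47 to 5.98 in LEGSKO+BSO and 3.34 to 7.17 in WT libraries for blood vessel markers (2 of 8 tested), 328 to 361 in LEGSKO+BSO and 259.9 to 368 in WT libraries for muscle and stroma markers (4 of 11 tested) and 474 to 661 in LEGSKO+BSO and 483 to 614 in WT libraries for ciliary body and Schwann cell markers (7 of 9 tested). Slc4a1, a defining marker of red blood cells, was at 0 in each of the 8 libraries, while haemoglobin RNA was present in all of them: Hbb-bs held 15, 56, 25 and 93 reads in LEGSKO+BSO, against 60, 42, 10 and 16 reads in WT libraries. The list medians were 0.62, -0.76, 0.04 and 0.05 on the log2 scale in the same order, and 0.69 for the immune and 0.80 for the corneal markers.

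Eph receptors and ephrins, which signal between touching cells and are known to keep lens cells in order, fell in 2 of their members. Ephb2, a receptor tyrosine kinase, had 6.53, 8.65, 6.21 and 5.58 CPM in LEGSKO+BSO epithelia, against 15.2, 11.9, 10.9 and 13.3 CPM in WT epithelia and was 1.91-fold lower (log2 -0.93 ± 0.15 SE, edgeR adjusted p = 0.00767), called without any 1 library. Efnb3, a ligand of the EphB class, had 4.24, 5.03, 4.75 and 4.16 CPM in LEGSKO+BSO epithelia, against 7.41, 8.73, 7.14 and 8.38 CPM in WT epithelia and was 1.75-fold lower (adjusted p = 0.0110, 0.0526 without LEGSKO+BSO library 1). Neither overlapped. The receptor Epha2 (log2 0.29) and its ligand ephrin A5, Efna5 (log2 0.07), both known from lens, were not called. Wnt5b, a ligand of non-canonical Wnt signalling, had 146, 147, 148 and 149 CPM in LEGSKO+BSO epithelia, against 114, 101, 112 and 127 CPM in WT epithelia, nearly equal among LEGSKO+BSO libraries and above WT (1.30-fold higher, adjusted p = 0.0173), and was not called without LEGSKO+BSO library 1 or 3 or WT library 2 (highest adjusted p = 0.0635). Over the 47 tested genes of FGF, Wnt and Eph signalling, 1 rose and 2 fell (median log2 0.07).

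Of the 8 most abundant genes named, Aldh3a1, Foxe3 and Tfrc are described above. Of the others, Alad, which joins aminolevulinate molecules in haem synthesis and needs zinc and reduced thiols, had 1104, 851, 1033 and 1027 CPM in LEGSKO+BSO epithelia, against 656, 671, 712 and 724 CPM in WT epithelia (1.45-fold higher, log2 0.54 ± 0.08 SE, edgeR adjusted p = 0.00524), without overlap and called without any 1 library. Mtor, the kinase of growth control, had 965, 837, 944 and 1019 CPM in LEGSKO+BSO epithelia, against 629, 648, 779.5 and 634 CPM in WT epithelia (1.40-fold higher, adjusted p = 0.0210). Malat1, a nuclear long non-coding RNA, had 1741, 2057, 2196 and 2326 CPM in LEGSKO+BSO epithelia, against 3424, 3081, 2785 and 2787 CPM in WT epithelia (1.45-fold lower, adjusted p = 0.0343). No groups overlapped in these 3 genes, but Mtor and Malat1 lost the call without some libraries: Mtor without LEGSKO+BSO library 1, 3 or 4 or WT library 2 (highest adjusted p = 0.0842), Malat1 without LEGSKO+BSO library 1 or 3 or WT library 1 or 2 (highest adjusted p = 0.117). Cubn, the endocytic receptor cubilin, stood at 374 ± 21.2 CPM in LEGSKO+BSO and 271 ± 30.6 CPM in WT epithelia (1.38-fold higher, adjusted p = 0.0201), and Ubr4, a large E3 ubiquitin ligase, at 548 ± 38.0 CPM in LEGSKO+BSO and 415 ± 47.7 CPM in WT epithelia (1.32-fold higher, adjusted p = 0.0391). Cubn lost the call without LEGSKO+BSO library 3 or 4 or WT library 2 (highest adjusted p = 0.0635), and Ubr4 without LEGSKO+BSO library 1, 3 or 4 or WT library 1, 3 or 4 (highest adjusted p = 0.123).

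Of 22 heat shock and small chaperone genes 2 rose, against 0.795% of all genes tested, and none fell (median log2 -0.09, 17 below 0). Hsph1, a nucleotide exchange factor of the Hsp70 system, had 77.1, 64.3, 69.6 and 73.0 CPM in LEGSKO+BSO epithelia, against 53.9, 55.0, 52.7 and 58.8 CPM in WT epithelia (1.29-fold higher, edgeR adjusted p = 0.0151). Hspb2, a small heat shock protein, had 51.7, 56.6, 51.9 and 56.3 CPM in LEGSKO+BSO epithelia, against 41.8, 43.2, 38.3 and 45.9 CPM in WT epithelia (1.28-fold higher, adjusted p = 0.0187). Neither overlapped between groups, but 30.2% of the exon bases of Hspb2 overlap Cryab, whose counts are far larger, on the other strand. Hsph1 lost the call without LEGSKO+BSO library 1 or WT library 2 (highest adjusted p = 0.0690), and Hspb2 without LEGSKO+BSO library 1 or 4 or WT library 2 or 3 (highest adjusted p = 0.0559). The inducible Hsp70 genes Hspa1a (log2 -0.34) and Hspa1b (log2 -0.35) were not called.

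No gene of the unfolded protein and integrated stress response was called by edgeR or DESeq2 out of 30 tested (median log2 0.10), and 8 had an unadjusted p below 0.05. The chaperone Hspa5 stood at 498 ± 31.1 CPM in LEGSKO+BSO and 443 ± 32.1 CPM in WT epithelia (adjusted p = 0.328) and the transcription factor Ddit3 at 14.5 ± 0.826 CPM in LEGSKO+BSO and 13.4 ± 1.94 CPM in WT epithelia (adjusted p = 0.731). None of 29 p53 targets and cell death genes was called by edgeR and 2 were by DESeq2 (median log2 0.03, 8 with an unadjusted p below 0.05), among them Cdkn1a at 2.39 ± 0.423 CPM in LEGSKO+BSO and 2.67 ± 0.595 CPM in WT epithelia. None of 35 fatty acid genes was called by edgeR or DESeq2 (median log2 0.00, 7 with an unadjusted p below 0.05).

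Of 37 cell cycle genes 1 fell, against 0.378% of all genes tested. On the log2 scale 30 of the 37 were below 0 (median -0.10), as were 7897 of all 15089 genes tested. Mcm3, a subunit of the replication helicase, had 10.5, 9.41, 10.05 and 8.30 CPM in LEGSKO+BSO epithelia, against 14.8, 12.7, 12.2 and 12.9 CPM in WT epithelia (1.37-fold lower, edgeR adjusted p = 0.0480), did not overlap, and missed the threshold without any 1 of the 8 libraries (highest adjusted p = 0.130). The proliferation marker Mki67 stood at 38.3 ± 7.46 CPM in LEGSKO+BSO and 37.8 ± 3.99 CPM in WT epithelia and was not called. Of 21 immediate early genes 1 rose (median log2 -0.11). It was Ier5, with 11.4, 13.6, 13.5 and 13.3 CPM in LEGSKO+BSO epithelia, against 8.82, 8.93, 8.95 and 8.73 CPM in WT epithelia (1.46-fold higher, adjusted p = 0.0238), not called without LEGSKO+BSO library 3 or 4 or WT library 2 (highest adjusted p = 0.0872).

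Untreated LEGSKO epithelia show which of these genes also separated LEGSKO+BSO from its own genotype. In that comparison 109 genes (0.722%) passed with edgeR, 49 higher (0.325%) and 60 lower (0.398%) in LEGSKO+BSO. It uses the same LEGSKO+BSO libraries as the comparison with WT, so the values stand side by side here and the overlap is no separate evidence. Tgfbi, Thra, Lonrf3, Foxe3 and Amotl1 were among the genes called in both with the smallest p against LEGSKO.

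Foxe3 averaged 479.8 ± 40.5 CPM in LEGSKO+BSO, 241 ± 54.2 in LEGSKO and 244 ± 50.05 in WT epithelia (SD, n = 4 each). Its log2 difference was 1.00 ± 0.15 (SE) from LEGSKO (adjusted p = 0.0165) and 0.98 ± 0.15 from WT, while the log2 difference of LEGSKO from WT, a comparison with 0.842% of genes called, was -0.02 (adjusted p = 0.969). Tgfbi averaged 7.55 ± 4.28 CPM in LEGSKO+BSO, 0.989 ± 0.174 in LEGSKO and 2.10 ± 1.15 in WT epithelia, and was higher than in LEGSKO by a log2 value of 2.94 ± 0.43 (SE, adjusted p = 0.0143). Serpina3n and Gpnmb showed the same order of levels: LEGSKO epithelia stood at 7.17 ± 2.53 and 4.19 ± 1.29 CPM, and LEGSKO+BSO epithelia were above them by 3.28 ± 0.54 and 2.71 ± 0.48 (log2, SE; adjusted p = 0.0208 and 0.0248). The pigment cell marker Dct averaged 6.26 ± 1.65 CPM in LEGSKO+BSO, 1.03 ± 0.620 in LEGSKO and 2.67 ± 1.15 in WT epithelia. Dct was higher than in LEGSKO by 2.61 ± 0.41 (log2, SE, edgeR adjusted p = 0.0165). By library the order differed: LEGSKO+BSO library 4 held the highest Gpnmb value, 62.6 CPM, and the lowest Dct value, 4.56 CPM. Tyr (log2 0.21) and Tyrp1 (log2 0.53) were not called against LEGSKO. The part of pigment cells was not tested.

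Thra, the thyroid hormone receptor alpha, averaged 71.3 ± 5.12 CPM in LEGSKO+BSO, 97.2 ± 2.60 in LEGSKO and 91.3 ± 5.29 in WT epithelia (adjusted p = 0.0143 against LEGSKO and 0.0173 against WT), and 5.70% of its exon bases overlap Nr1d1 on the other strand, which stood at 136 CPM in LEGSKO+BSO and 184 CPM in WT epithelia (log2 -0.44 ± 0.12 SE, adjusted p = 0.0992, not called). Amotl1, a tight junction protein of the angiomotin family, averaged 69.0 ± 2.99, 89.6 ± 5.48 and 83.5 ± 3.07 CPM in the same order of groups (adjusted p = 0.0208 and 0.0452). Lonrf3, a RING finger protein, averaged 63.2 ± 6.73, 39.2 ± 4.32 and 44.9 ± 5.20 CPM (adjusted p = 0.0143 and 0.0322). Against WT these 3 genes differed by under 1.5-fold, and each lost that call without some libraries (highest adjusted p = 0.0625 for Thra, 0.152 for Amotl1 and 0.117 for Lonrf3). Without LEGSKO library 2 or 4, or LEGSKO+BSO library 1 or 3, edgeR called no gene at all against LEGSKO, with 2821, 2293, 2361 and 2482 genes at an unadjusted p below 0.05, and DESeq2 was not run on those subsets.

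Other genes did not pass the test between the LEGSKO groups. Mt1 averaged 8.09 ± 1.27 CPM in LEGSKO epithelia (log2 0.54 ± 0.24 SE for LEGSKO+BSO over LEGSKO, adjusted p = 0.246), and Mt2 averaged 5.34 ± 2.18 CPM (log2 0.72 ± 0.37 SE, adjusted p = 0.300). Col1a2 averaged 109 ± 24.2 CPM in LEGSKO (log2 -0.34 ± 0.44 SE, adjusted p = 0.708), Krt15 59.8 ± 8.25 (log2 -0.21 ± 0.18 SE, adjusted p = 0.541), Alad 968 ± 45.4 (log2 0.05 ± 0.08 SE, adjusted p = 0.752) and Ephb2 6.04 ± 0.575 (log2 0.15 ± 0.15 SE, adjusted p = 0.605). None of these 6 differences was called, which does not show that the LEGSKO groups are alike. Gclc averaged 85.6 ± 18.6 CPM in LEGSKO+BSO and 58.2 ± 10.6 CPM in LEGSKO epithelia (log2 0.56 ± 0.16 SE, adjusted p = 0.105), with 70.5, 57.7, 60.0 and 44.6 CPM in LEGSKO libraries 1 to 4.

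Cortical fiber cells of the same conditions give a second tissue with its own WT libraries. It is not stated whether fibers and epithelia came from the same lenses, and all libraries were fitted as separate samples. Calls shared by the tissues are therefore not shown to be separate evidence. LEGSKO+BSO against WT fibers gave 742 calls among 13436 genes (5.52%). Of the 177 genes called in epithelia 155 were tested in fibers, and 28 were called in the same direction there, 19 higher and 9 lower, with none in the opposite direction. The 28 are 18.1% of the epithelial calls tested in fibers, against 5.42% of all genes tested in both tissues called in fibers in either direction. They are 3.93% of the 713 fiber calls tested in epithelia, against 1.17% of all genes tested in epithelia called there in either direction. WT fiber library 1 held 50.1% crystallin counts, and WT fiber libraries 2 to 4 held 27.6 to 29.6%.

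Mt1 in fibers had 28.1, 31.4, 32.6 and 35.9 CPM in LEGSKO+BSO, against 1.17, 3.02, 1.24 and 2.00 CPM in WT libraries (log2 4.04 ± 0.20 SE, edgeR adjusted p = 4.74e-08). Slc14a1 had 2.51, 0.931, 1.74 and 2.32 CPM in LEGSKO+BSO fibers, against 0.0556, 0.189, 0.262 and 0.204 CPM in WT fibers (log2 3.30 ± 0.47 SE, adjusted p = 0.00140). Wsb1 had 21.9, 26.3, 21.3 and 24.6 CPM in LEGSKO+BSO fibers, against 53.7, 45.5, 39.7 and 42.5 CPM in WT fibers (log2 -0.94 ± 0.10 SE, adjusted p = 0.000146). In these 3 genes no LEGSKO+BSO fiber library overlapped a WT fiber library. The sterol genes Insig1 (log2 -0.76 ± 0.10 SE, adjusted p = 0.000913), Hmgcs1 (log2 -0.84 ± 0.20 SE, adjusted p = 0.0258) and Fdft1 (log2 -0.59 ± 0.13 SE, adjusted p = 0.0184) were lower and Abca1 (log2 1.40 ± 0.27 SE, adjusted p = 0.0106) was higher in LEGSKO+BSO than in WT fibers. WT fiber library 1 was the highest WT fiber library for Hmgcs1 (150 CPM, others 70.3 to 79.7) and Fdft1 (102 CPM, others 64.4 to 69.7). For Abca1 it was the lowest (5.89 CPM, others 14.7 to 22.9), and for Insig1 it lay within the others (524 CPM, others 489 to 596). No fiber library was left out in turn, so the hold of that library on these fold sizes was not tested. Mt2 had 0.506, 0.497, 0.402 and 0.486 CPM in LEGSKO+BSO fibers, against 0, 1.48, 0.112 and 0.781 CPM in WT fibers. It was not called there (log2 -0.41 ± 0.68 SE, edgeR adjusted p = 0.767). By the interaction test described next, the response in epithelia minus that in fibers was not called for either metallothionein. The log2 value was 3.08 ± 0.80 for Mt2 (SE, edgeR adjusted p = 0.0799) and -1.27 ± 0.38 for Mt1 (adjusted p = 0.133).

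The difference between the tissues in the LEGSKO+BSO response was tested as an interaction over 24 libraries. It was called for 43 of 15560 genes (0.276%), and 5 of these were also called in epithelia. For Tacr3 the response was larger in epithelia by a log2 value of 6.93 ± 0.75 (SE, edgeR adjusted p = 1.60e-05), with 0.368, 0.331, 0.0894 and 0.417 CPM in LEGSKO+BSO fibers, against 0.111, 0.346, 0.450 and 0.136 CPM in WT fibers, in overlapping ranges. Hdac9 differed by -1.15 ± 0.20 (SE, adjusted p = 0.0119), with 14.1, 12.7, 13.1 and 11.7 CPM in LEGSKO+BSO fibers, against 11.6, 10.3, 12.6 and 14.4 CPM in WT fibers, also overlapping. These tests held without any 1 epithelial library of either group.

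For the other 3 genes the interaction was smaller. Arap1, a GTPase-activating protein for Arf proteins, stood at 40.2 ± 1.91 CPM in LEGSKO+BSO and 52.4 ± 4.72 CPM in WT epithelia, and its tissue difference was -0.54 ± 0.11 (log2, SE, edgeR adjusted p = 0.0429). Creg1, a glycoprotein of the endosome and lysosome, stood at 160.2 ± 31.4 CPM in LEGSKO+BSO and 102 ± 16.5 CPM in WT epithelia, with a tissue difference of 0.82 ± 0.17 (adjusted p = 0.0421). Zbtb7b, a zinc finger transcription factor, stood at 29.1 ± 1.13 CPM in LEGSKO+BSO and 35.6 ± 0.993 CPM in WT epithelia, with a tissue difference of -0.44 ± 0.09 (adjusted p = 0.0460). All 3 lost the interaction call without LEGSKO+BSO library 1, 3 or 4 or WT library 2 or 3, Creg1 also without WT library 1, and Zbtb7b also without LEGSKO+BSO library 2 or WT library 1 (highest adjusted p = 0.0909 in each). Against WT epithelia their calls were likewise lost without some libraries: Arap1 without LEGSKO+BSO library 1 or 3 or WT library 2 (highest adjusted p = 0.0839), Creg1 without LEGSKO+BSO library 1, 3 or 4 or WT library 1, 2 or 3 (highest adjusted p = 0.126), and Zbtb7b without any 1 of the 8 libraries (highest adjusted p = 0.130).

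The called genes were spread over all autosomes and the X chromosome. Tacr3 and Cfi both lie on chromosome 3, starting at 134829007 and 129836727, in neighbouring 10 Mb windows. Chromosome 1 held 17 calls among 848 genes tested (2.00%) and chromosome 15 held 3 among 588 (0.510%), against 1.17% over all. Of 94 genes tested within 10 Mb of Gclc on chromosome 9, none was called by edgeR and 10 had an unadjusted p below 0.05, against 14.8% of all genes tested, and DESeq2 was not counted there. The window of chromosome 12 between 100 and 110 Mb held 4 calls among 68 genes, Fam181a, Prima1, Serpina3n and Asb2, and the window of chromosome 1 above 190 Mb held 3 among 43, Lamb3, Hsd11b1 and G0s2.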

How the data were processed

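The deposited table holds whole-number read counts per gene for 24 libraries, 24415 genes by Entrez number, and 24334 of these were matched to RefSeq GRCm38 symbols. The 81 unmatched rows held 0.914% of the counts and stayed in the fit. Per the submitters' processing notes, the tools were bcl2fastq, CASAVA 1.8, TopHat and DESeq and the build mm10/GRCm38, with no role or order given. The counting program, annotation and strand setting are not stated, and without strand, reads of overlapping genes cannot be told apart.

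From these counts, comparisons used the quasi-likelihood F test of edgeR 4.0.16 (R 4.3.3; TMM scaling; genes kept by filterByExpr at 10 counts, or 15 in total; Benjamini-Hochberg adjustment over all genes tested; threshold 0.05). The 12 epithelial libraries in 3 groups shared 1 fit with 9 residual degrees of freedom. Fibers were fitted the same way, and the tissue difference over 24 libraries in 6 groups. Total counts are given with the results, and CPM (counts per 1e6 of the TMM-scaled total) were computed from the counts. The scripts were tested on simulated data.

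Named genes were Gclc, Gclm and Gss, the 12 highest, 12 lowest and 8 most abundant called genes with an average log2 CPM of at least 1 and no overlap between groups, each called list member, and up to 6 called genes also called against LEGSKO or in the tissue difference. Members and lists were chosen with earlier results of these data known. Alternatives were DESeq2 1.42.0, DESeq2-type (RLE) scaling, no filter, a replicate block, only the libraries compared, and each epithelial library left out in turn. Some genes covered by the rule are not reported here. LEGSKO fibers entered only the fiber and tissue fits.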

Additional observations from a re-analysis of the deposited data

Results flagged for a closer look

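Of 128 groups of 4 libraries examined, 12 held 1 library far from the others, where chance gives about 1 in 20. Among LEGSKO+BSO libraries, library 2 stood apart in 5 genes: Kcnd1 at 2.67 CPM (others 1.501 to 1.65), G0s2 at 9.20 CPM (others 11.97 to 12.1), Ubr4 at 492 CPM (others 563 to 572), Col1a2 at 54.2 CPM (others 92.6 to 99.6) and Abca1 at 95.4 CPM (others 131 to 135). Library 1 stood apart in Ier5, at 11.4 CPM (others 13.3 to 13.6). Among WT libraries, library 1 was high in Pdgfra, at 475 CPM (others 251 to 275), and in Gpx4, at 317 CPM (others 268 to 273). WT library 3 was high in Mtor, at 779.5 CPM (others 629 to 648). WT library 4 was low in Adgrl2, at 11.9 CPM (others 18.3 to 19.2), high in Kif26a, at 9.12 CPM (others 8.07 to 8.23), and low in Gclm, at 37.7 CPM (others 46.0 to 47.1).

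The LEGSKO+BSO response differed between epithelia and fibers, by the interaction test, in 5 of the genes called in epithelia. The log2 response in epithelia minus that in fibers was 6.93 for Tacr3, -1.15 for Hdac9, -0.54 for Arap1, 0.82 for Creg1 and -0.44 for Zbtb7b.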

How the results depend on the processing

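The comparison of LEGSKO+BSO with WT epithelia, with 177 calls, gave 580 with DESeq2 (363 higher, 217 lower, all 177 among them) and 62 when only the 8 libraries compared were fitted (61 shared). RLE scaling gave 178, no filter on low counts 238 and the replicate block 130, and leaving out 1 library gave 41 to 324. Against LEGSKO epithelia, with 109 calls, DESeq2 gave 680, the replicate block 46, only the 8 libraries 142, RLE scaling 110, no filter 115, and leaving out 1 library 0 to 442. The tissue difference, with 43 calls, gave 293 with DESeq2, 10 with the replicate block, 12 with only the 16 libraries compared, 38 with RLE scaling, 43 with no filter, and 12 to 94 with 1 epithelial library left out. The cause of these changes was not tested, and the subsets also hold fewer samples. Same-numbered libraries did not deviate together (correlations of -0.361 to 0.363), so the replicate numbers were not taken as pairing the samples. Among the named genes the only change of sign was Gclc, at log2 -0.010 without LEGSKO+BSO library 1 and -0.010 to 0.24 over the libraries left out. Over all named genes and alternatives, 585 values kept their direction and side of the threshold and 246 kept the direction but missed it. List medians moved by more than 1 SD of the median between LEGSKO+BSO libraries in 27 cases and stayed within it in 350. Genes with WT values near 0 counts, Tacr3 and Cfi, have folds limited by depth.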

Other observations

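Several called genes outside the lists and the naming rule, chosen here after their values were seen, stood out by level or by neighbourhood. Whether their calls hold with a library left out was not examined, and several adjusted p-values lie close to 0.05. The drug exporters Abcb1b, at 71.3 ± 2.21 CPM in LEGSKO+BSO and 41.3 ± 6.10 CPM in WT epithelia (1.73-fold higher, edgeR adjusted p = 0.00207), and Abcb1a, at 22.1 ± 2.83 CPM in LEGSKO+BSO and 11.9 ± 1.86 CPM in WT epithelia (1.85-fold higher, adjusted p = 0.00752), are close copies side by side on chromosome 5, so that the split of reads between them is uncertain. Alas1, the first enzyme of haem synthesis, stood at 20.2 ± 1.23 CPM in LEGSKO+BSO and 25.9 ± 2.18 CPM in WT epithelia (1.29-fold lower, adjusted p = 0.0479), while Alad, the next enzyme, was higher. Hsd11b1, which regenerates active glucocorticoid, stood at 16.1 ± 3.03 CPM in LEGSKO+BSO and 7.19 ± 2.59 CPM in WT epithelia (adjusted p = 0.0256), Klf9, a glucocorticoid-inducible transcription factor, at 9.81 ± 1.12 CPM in LEGSKO+BSO and 5.83 ± 0.804 CPM in WT epithelia (adjusted p = 0.0143), and the clock gene Per2 at 123 ± 8.69 CPM in LEGSKO+BSO and 74.3 ± 22.4 CPM in WT epithelia (adjusted p = 0.0463).

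Lamb3, a laminin chain of basement membranes, stood at 9.42 ± 1.27 CPM in LEGSKO+BSO and 4.36 ± 0.761 CPM in WT epithelia (adjusted p = 0.00199), and Jam2, a junction adhesion molecule, at 291 ± 21.1 CPM in LEGSKO+BSO and 194 ± 27.1 CPM in WT epithelia (adjusted p = 0.0110). Lipa, the lysosomal acid lipase, stood at 94.0 ± 7.75 CPM in LEGSKO+BSO and 69.3 ± 8.06 CPM in WT epithelia (adjusted p = 0.0248), Atg13, a subunit of the kinase complex that starts autophagy, at 155 ± 7.77 CPM in LEGSKO+BSO and 122 ± 6.51 CPM in WT epithelia (adjusted p = 0.0173), and the lysosomal ATPase Atp13a2 at 85.0 ± 3.27 CPM in LEGSKO+BSO and 69.0 ± 5.05 CPM in WT epithelia (adjusted p = 0.0442). Lower genes included the matrix proteins Spon2, at 170.5 ± 22.9 CPM in LEGSKO+BSO and 273 ± 47.5 CPM in WT epithelia (adjusted p = 0.0110), and Cilp, at 97.8 ± 25.9 CPM in LEGSKO+BSO and 179 ± 16.8 CPM in WT epithelia (adjusted p = 0.0129), the kinase Eif2ak2 (PKR), at 36.8 ± 0.994 CPM in LEGSKO+BSO and 49.1 ± 4.52 CPM in WT epithelia (adjusted p = 0.00899), and Smad3, a transducer of TGF-beta signals, at 84.1 ± 3.57 CPM in LEGSKO+BSO and 99.9 ± 3.57 CPM in WT epithelia (adjusted p = 0.0470). All values are means ± SD over 4 libraries each.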
